A study of Mus musculus with 2 samples.

Results

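The network of p53 was examined in mouse Lewis lung carcinoma (LLC) cells by the genes Trp53, Mdm2, Mdm4, Btg2, Phlda3, Zmat3, Tigar, Perp, Aen and Sesn1, listed by symbol. Of these 10 genes, 9 were matched to a probe set of the array, among 19505 genes in all; Trp53, the gene for p53 itself, was not analysed here. RNA came from 2 stable puromycin-selected lines of LLC cells, a carcinoma of C57BL/6 strain. The knockdown line was made with a virus carrying a hairpin that targets PDLIM2 (shPDLIM2), and its control with a virus carrying the shEmpty construct. Each line was measured on 1 Affymetrix Clariom S mouse array, and the knockdown rests on 1 hairpin, which the study had picked for its efficiency. Without replicates, neither a p-value nor an error could be computed, and differences between the lines that are unrelated to PDLIM2 cannot be told apart from the knockdown. RNA was measured in bulk, so that fewer cells with a transcript and less of it per cell cannot be told apart either.

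The transcription factor p53 is kept scarce in unstressed cells by Mdm2, a ubiquitin ligase that marks it for degradation, and by Mdm4, a relative of Mdm2 that binds p53 and blocks its activity. DNA damage and other stresses release p53, which then switches on genes for growth arrest, DNA repair, antioxidant metabolism and cell death. Mdm2 is itself a target of p53 and closes a feedback loop. In lung carcinomas p53 is a frequently mutated tumor suppressor, and its mutations in these cells were not analysed here.

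Values are RMA log2 signals per probe set, each difference is the shPDLIM2 minus the shEmpty signal, and a log2 difference of 1 is a 2-fold change. A signal was called above background where it lay over the 95th percentile of the same array's 1465 odorant, vomeronasal and taste receptor genes, at 5.26 in shPDLIM2 and 5.12 in shEmpty cells. The central 95% of the receptor genes' differences ran from -0.79 to 1.01. In genes with 2 probe sets, the difference of 1 probe set had a spread of 0.35. PDLIM2 had signals of 8.33 in shPDLIM2 and 10.04 in shEmpty cells, 3.27-fold lower in the knockdown, and Actb had 17.98 and 18.22 in the same order. Of 5 epithelial markers, 3 passed the background level in 1 or both lines (Krt8, Krt18 and Krt19), while Epcam and Cdh1 did not. All 5 were lower in shPDLIM2 cells, beside 49.0% of all genes and 54.9% of those above background. The differences were -0.36 (Krt8), -0.91 (Krt18), -1.15 (Krt19), -0.08 (Epcam) and -0.39 (Cdh1). The mean log2 signal of all 5 was 6.08 in shPDLIM2 and 6.66 in shEmpty cells. Of 5 lung markers, Sftpc alone passed the background level, at 5.33 in shPDLIM2 and 5.13 in shEmpty cells, and Nkx2-1, Sftpb, Scgb1a1 and Napsa did not. Of 4 macrophage and leukocyte markers measured, Adgre1 passed it in shPDLIM2 cells alone (5.76, against 4.93 in shEmpty cells), while Itgam, with a difference of 0.83, Csf1r and Ptprc did not pass. Of 4 lymphocyte markers measured, Cd4 passed in shPDLIM2 cells alone (5.38, against 4.84 in shEmpty cells), and of 5 endothelial markers so did Pecam1 (5.33, against 3.55 in shEmpty cells). Of 4 fibroblast and mesenchymal markers measured, Vim was far above background in both lines, Pdgfrb passed in shPDLIM2 cells alone (5.55, against 5.01 in shEmpty cells), and Col1a1 and Col1a2 did not pass. Sftpc, Adgre1, Cd4, Pecam1 and Pdgfrb were close to the background level. On neither array did they pass the 99th percentile of the receptor genes, 5.82 in shPDLIM2 and 5.70 in shEmpty cells. The part of the cell type markers in the differences below was not tested.

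Signals of the p53 network went in both directions. Of the 9 genes, 5 were higher and 4 were lower in shPDLIM2 cells, with a median log2 difference of 0.01, which was also the median over all genes. Only 1 gene was past 1.5-fold higher (Btg2) and 1 was past 1.5-fold lower (Phlda3), where 9.78% and 10.0% of all genes passed these limits. At 2-fold the count was 1 higher and 0 lower, beside 1.74% and 2.01% of all genes. Of the 9 genes, 8 were above background on both arrays and Perp on neither.

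**Figure D1:**
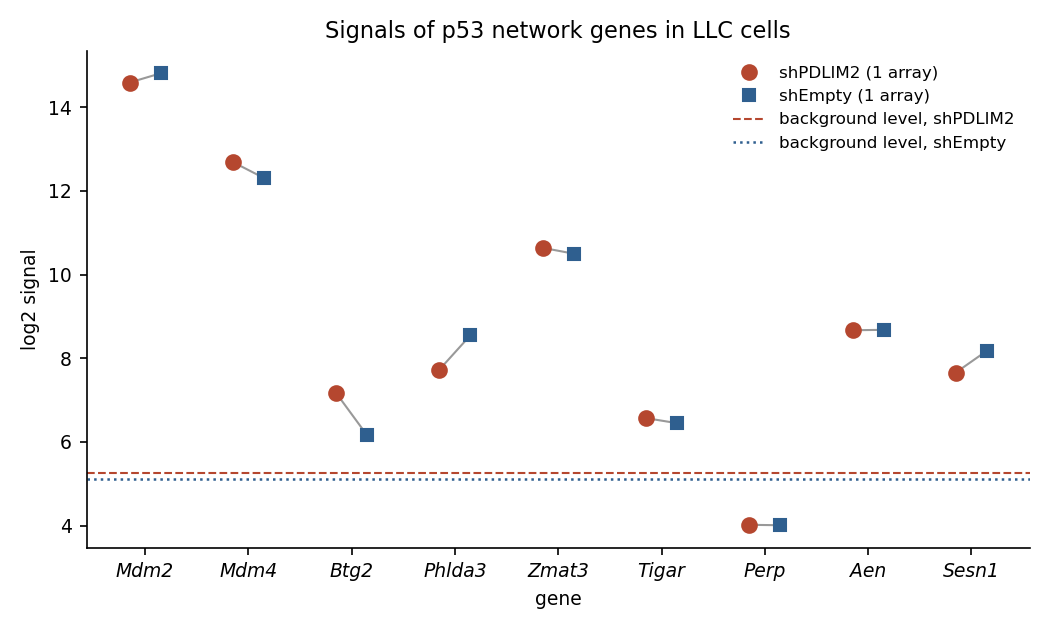
Log2 signal (vertical axis) of each gene in shPDLIM2 cells (circles) and shEmpty cells (squares), 1 array each, with the background level of each array as a line. Btg2 has the higher circle by 1.01, Phlda3 the lower circle by 0.82 and Sesn1 by 0.52, and both symbols of Perp lie under the background lines.

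The regulators Mdm2 and Mdm4 had differences of opposite sign. Mdm2 had a log2 signal of 14.59 in shPDLIM2 cells and 14.81 in shEmpty cells, a difference of -0.22, or 1.16-fold lower. Mdm4 had 12.69 in shPDLIM2 cells and 12.31 in shEmpty cells, a difference of 0.38, or 1.30-fold higher. The difference of Mdm4 exceeded that of Mdm2 by 0.60 on the log2 scale. Both genes kept their sign after centring, quantile normalization and removal of a lowess trend. Set beside genes whose mean signal lay within 0.5 log2 units, 36.8% of 190 genes had a lower difference than Mdm2 and 83.4% of 505 genes had a lower difference than Mdm4. Both values thus lay well inside what genes of like signal showed, and each was also inside the range of the receptor genes.

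Btg2 had the largest difference of the network. It encodes an antiproliferative protein of the BTG and TOB family, which recruits the deadenylases that shorten mRNA tails, and it is also known as an immediate early gene. Its log2 signal was 7.17 in shPDLIM2 cells and 6.16 in shEmpty cells, a difference of 1.01, or 2.01-fold higher. Among 1513 genes of like signal, 14 had a higher difference. The value lay at the upper edge of the receptor genes' range, which ended at 1.01. The relatives of Btg2 did not share the size of its difference. Btg1 had 14.18 in shPDLIM2 cells and 14.04 in shEmpty cells (0.14), Btg4 5.74 and 5.59 in the same order (0.15), Tob1 7.93 and 8.18 (-0.25), and Tob2 6.18 and 6.64 (-0.46).

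Phlda3 had the lowest difference. It encodes a small pleckstrin-homology protein that competes with the kinase Akt for membrane lipids and so restrains Akt. Its log2 signal was 7.73 in shPDLIM2 cells and 8.55 in shEmpty cells, a difference of -0.82, or 1.77-fold lower. Among 1306 genes of like signal, 79 had a lower difference. Its relative Phlda1 went the other way, with 10.97 in shPDLIM2 cells and 10.07 in shEmpty cells (0.90), while Phlda2 was not above background on either array, at 4.45 in shPDLIM2 and 4.85 in shEmpty cells.

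**Figure D2:**
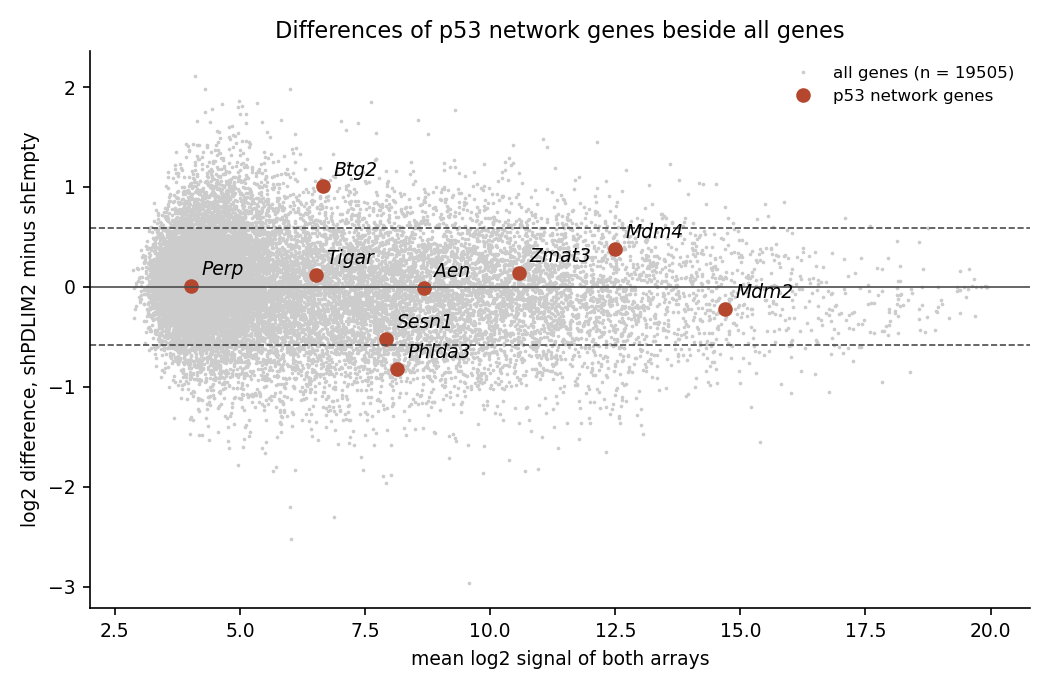
Log2 difference, shPDLIM2 minus shEmpty (vertical axis), against the mean log2 signal of both arrays (horizontal axis) for all 19505 genes (grey) and the p53 network (red), with dashed lines at a fold of 1.5. Btg2 lies above the upper line and Phlda3 below the lower one, and the other 7 genes lie between the lines.

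Sesn1 was lower and the other two sestrins were higher. Sestrins are stress-induced proteins that hold back the growth kinase mTORC1, through AMPK and through the GATOR2 complex. Sesn1 had a log2 signal of 7.66 in shPDLIM2 cells and 8.18 in shEmpty cells, a difference of -0.52, or 1.43-fold lower, and 19.4% of 1367 genes of like signal had a lower difference. Sesn2, which the stress factor ATF4 also induces, had 6.40 in shPDLIM2 cells and 5.94 in shEmpty cells (0.46). Sesn3, a target of FoxO factors, had 6.38 in shPDLIM2 cells and 5.98 in shEmpty cells (0.40). None of the sestrins was past 1.5-fold.

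Of 14 genes for AMPK subunits and mTORC1 regulators that act beside the sestrins, 12 were lower and 2 were higher in shPDLIM2 cells, with a median log2 difference of -0.37, beside 0.01 and 49.0% lower over all genes and 54.9% lower over the genes above background. Past 1.5-fold, 4 were lower and 1 was higher, where 10.0% of all genes were lower and 9.78% higher by as much. Among the 10800 genes above background, 1569 were lower and 1056 higher past this limit. Of the list, 13 genes were above background, with 4 lower and 0 higher past it. Nprl3 and Nprl2, subunits of the GATOR1 complex that inhibits mTORC1, had differences of -1.04 and -0.87, and Tsc1, which with Tsc2 restrains the mTORC1 activator Rheb, had -0.81. The other gene past the lower limit was Wdr59, of the GATOR2 complex, at -0.66. Wdr24 and Mios, of the same complex, had -0.49 and -0.32, and Rheb had 0.21. The list is not limited to inhibitors of mTORC1, so that its count gives no direction for mTORC1 activity, which was not measured. The gene past the upper limit was Prkaa2, an AMPK catalytic subunit, at 4.36 in shPDLIM2 and 3.43 in shEmpty cells, not above background on either array.

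Promoters from the RefSeq table (GRCm38.p6, 250 bases before to 50 after the annotated start) were found for 7 of the 9 genes, 10 windows in all. They were searched for the p53 half-site consensus (purines, then C, a pair of A or T, G, then pyrimidines), which reads the same on both strands. A half-site lay in 4 of the 10 windows, those of Mdm2, Aen (2 overlapping windows with the same site) and 1 of 2 starts of Sesn1, beside 8.36% of 32841 windows over all genes. No window held a pair of half-sites up to 13 bases apart, which 0.0731% of all windows did. Btg2 and Phlda3 are shown because they had the highest and the lowest difference, and Mdm2 and Sesn1 because their windows hold a half-site, printed in capitals. They are Btg2 at chr1:134079106-134079405 (minus strand), Phlda3 at chr1:135765835-135766134 (plus strand), Mdm2 at chr10:117710709-117711008 (minus strand) and the second start of Sesn1 at chr10:41887189-41887488 (plus strand), each written 5′ to 3′ along its gene.
Btg2: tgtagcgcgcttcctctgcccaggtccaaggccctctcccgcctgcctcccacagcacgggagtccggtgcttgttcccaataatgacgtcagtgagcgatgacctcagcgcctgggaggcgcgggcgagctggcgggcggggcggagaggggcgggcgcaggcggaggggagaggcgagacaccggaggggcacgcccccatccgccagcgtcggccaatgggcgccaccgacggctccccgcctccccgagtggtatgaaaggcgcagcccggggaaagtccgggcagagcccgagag
Phlda3: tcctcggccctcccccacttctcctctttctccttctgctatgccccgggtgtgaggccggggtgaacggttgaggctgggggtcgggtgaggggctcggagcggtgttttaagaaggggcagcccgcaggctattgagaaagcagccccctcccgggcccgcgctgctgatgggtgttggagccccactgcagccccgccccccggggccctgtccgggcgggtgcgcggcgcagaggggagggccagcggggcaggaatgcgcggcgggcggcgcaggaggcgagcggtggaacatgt
Mdm2: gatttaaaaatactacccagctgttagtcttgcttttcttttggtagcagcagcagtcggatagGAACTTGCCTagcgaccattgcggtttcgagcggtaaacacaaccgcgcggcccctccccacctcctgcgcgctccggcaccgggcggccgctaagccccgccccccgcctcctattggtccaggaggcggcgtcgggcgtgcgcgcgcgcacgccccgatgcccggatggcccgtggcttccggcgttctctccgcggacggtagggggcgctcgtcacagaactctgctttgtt
Sesn1: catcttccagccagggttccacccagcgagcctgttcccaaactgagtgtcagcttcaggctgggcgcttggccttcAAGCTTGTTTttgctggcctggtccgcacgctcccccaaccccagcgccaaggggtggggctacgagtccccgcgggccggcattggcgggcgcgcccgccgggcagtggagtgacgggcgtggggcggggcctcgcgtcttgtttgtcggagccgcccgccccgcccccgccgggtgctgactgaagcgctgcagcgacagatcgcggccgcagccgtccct
The half-site of Mdm2, GAACTTGCCT, begins 186 bases before the start, and that of Sesn1, AAGCTTGTTT, begins 173 bases before it. The site in the Aen windows is GGGCTTGTCC. The 3 genes with a half-site had differences of -0.22 (Mdm2), -0.01 (Aen) and -0.52 (Sesn1). Btg2 and Phlda3, at the ends of the range, had no match in these windows. Only exact matches were counted and sequence outside the windows was not searched, so that p53 sites elsewhere in any of these genes would be missed. A match in a window is a run of letters, and binding of p53 was not measured.

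The remaining targets had small differences. Zmat3, a zinc finger RNA-binding protein that acts in tumor suppression by p53, had a log2 signal of 10.64 in shPDLIM2 cells and 10.50 in shEmpty cells, a difference of 0.14. Tigar, a phosphatase that lowers fructose-2,6-bisphosphate and so diverts glucose from glycolysis to the pentose phosphate pathway, had 6.57 in shPDLIM2 cells and 6.45 in shEmpty cells, a difference of 0.12. Aen, a nuclease that takes part in apoptosis, had 8.67 in shPDLIM2 cells and 8.68 in shEmpty cells, a difference of -0.01. These 3 differences were all smaller than the spread of 1 probe set, 0.35, and the sign of Aen turned with the scaling of the arrays (0.08 both with quantile-normalized arrays and with the lowess trend taken out).

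Some relatives of these targets had larger differences than the targets. Past 1.5-fold, 2 of 4 other ZMAT genes, 1 of 2 PFKFB genes and 1 of 2 Isg20 genes were lower and 0 were higher. Of all genes, 10.0% were lower and 9.78% higher by as much. With so few relatives per target, no conclusion is drawn from these counts. Beside Zmat3, Zmat2, a spliceosome protein, had 8.54 in shPDLIM2 cells and 10.08 in shEmpty cells (-1.54, or 2.91-fold lower), and Zmat5, of the minor spliceosome, had 5.47 in shPDLIM2 and 6.39 in shEmpty cells (-0.92); Zmat1 and Zmat4 were not above background, with differences of -0.22 and 0.23. Beside Tigar, Pfkfb3, whose product makes fructose-2,6-bisphosphate, had 7.18 in shPDLIM2 and 8.03 in shEmpty cells (-0.85), and Pfkfb4 had 5.36 and 5.18 in the same order (0.18). Beside Aen, the exonuclease gene Isg20 had 7.66 in shPDLIM2 and 8.72 in shEmpty cells (-1.06, or 2.08-fold lower), and Isg20l2 had 7.05 and 6.53 in the same order (0.52).

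Perp was at background. It encodes a tetraspan membrane protein that p53 and its relative p63 induce and that belongs to desmosomes. Its log2 signal was 4.02 in shPDLIM2 cells and 4.01 in shEmpty cells, under the background level on both arrays, so that no difference was detectable. Of 8 desmosome genes, 3 passed the background level in 1 or both lines. Pkp2, a plakophilin, had 6.65 in shPDLIM2 and 7.14 in shEmpty cells (-0.49), Jup, plakoglobin, had 5.27 and 5.11 in the same order (0.16), and Pkp4 had a difference of -0.11. The desmosomal core genes Dsp, Dsg2 and Dsc2 were not above background on either array. The PMP22 and EMP genes, which also encode tetraspan proteins, were above background, with differences of -0.59 (Pmp22), 0.04 (Emp1), 0.12 (Emp2) and -0.22 (Emp3).

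Among the relatives of p53, Trp63 had 4.98 in shPDLIM2 cells, under the background level, and 5.16 in shEmpty cells, just above it. Trp73 had 4.58 in shPDLIM2 and 3.85 in shEmpty cells, both under it. No direction is read from either.

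**Figure D3:**
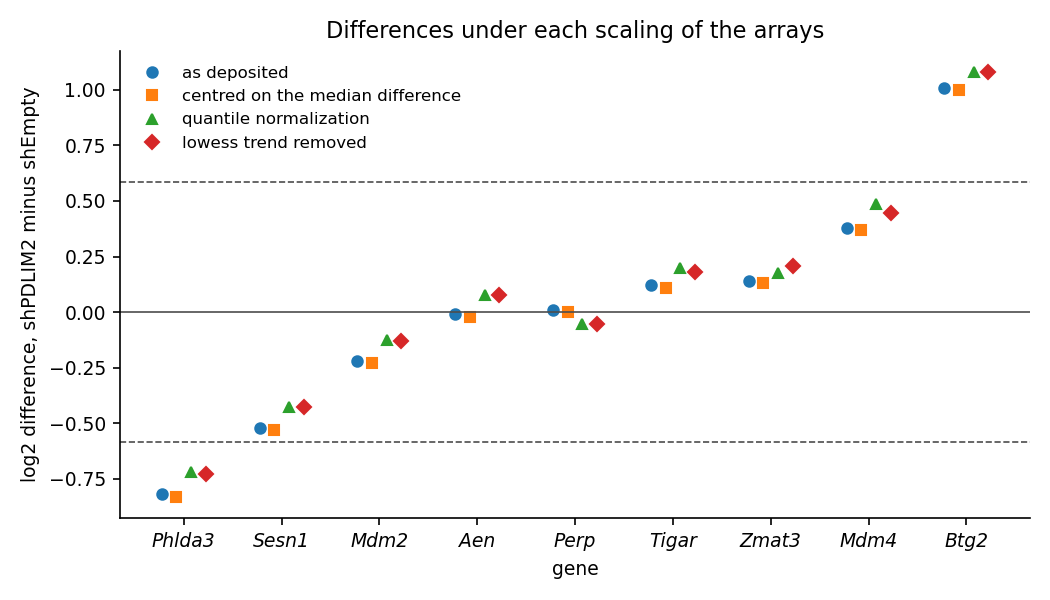
Log2 difference, shPDLIM2 minus shEmpty (vertical axis), of each gene as deposited and under 3 scalings of the arrays, with genes ordered by the deposited difference and dashed lines at a fold of 1.5. Phlda3 stays below the lower line and Btg2 above the upper one, and Aen and Perp have points on both sides of 0.

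The other known targets of p53 gave the same mixed picture with more genes on the lower side. Of 31 such genes measured, 19 were lower and 12 were higher in shPDLIM2 cells, with a median log2 difference of -0.21; over all genes the median was 0.01 and 49.0% were lower. Over the 29 that passed the background level in 1 or both lines, 19 were lower and the median was -0.22, beside -0.06 and 54.9% lower over the 10800 genes above background. Past 1.5-fold, 2 were lower and 0 were higher, so that neither share exceeded that of all genes.

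Targets for cell cycle arrest were split evenly by count, 5 lower and 5 higher. The median log2 difference of these 10 genes was -0.115. Sfn, on the higher side, was not above background on either array, at 4.16 in shPDLIM2 and 3.80 in shEmpty cells. The 9 genes above background, 5 of them lower, had a median of -0.28, beside -0.06 over all genes above background. Their share of lower genes, 55.6%, was close to the 54.9% of all genes above background. Cdkn1a, which encodes the CDK inhibitor p21, had a log2 signal of 16.45 in shPDLIM2 cells and 16.06 in shEmpty cells (0.39, or 1.31-fold higher). Ccng1, cyclin G1, a p53 target that acts with PP2A on Mdm2, had 15.72 in shPDLIM2 and 16.30 in shEmpty cells (-0.58, or 1.49-fold lower). The best-known arrest gene and the cyclin G1 gene thus had opposite signs. Plk2, a polo-like kinase, had a difference of 0.50 and Gtse1, a microtubule-binding protein that opposes p53, had -0.48.

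Of 11 targets for cell death, 8 were lower and 3 were higher, with a median of -0.12. Apaf1, the scaffold of the apoptosome, was the only one past 1.5-fold, at 9.05 in shPDLIM2 and 9.75 in shEmpty cells (-0.70, or 1.62-fold lower). Triap1, an inhibitor of apoptosis, had -0.49, and Dram1, a lysosomal membrane protein of autophagy, had -0.26 and was above background in shEmpty cells alone. The BH3-only gene Pmaip1 (Noxa) had 8.27 in shPDLIM2 and 8.37 in shEmpty cells (-0.10), and Bbc3 (Puma) was not above background on either array, at 5.22 and 4.75 in the same order. Bax was not analysed here.

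Of 10 targets for DNA repair, nucleotides and metabolism, 6 were lower and 4 were higher, with a median of -0.28. All were above background in 1 or both lines, where 54.9% of genes were lower, beside 49.0% of all genes. Past 1.5-fold, 1 was lower and 0 were higher, beside 10.0% and 9.78% of all genes. Ephx1, the microsomal epoxide hydrolase, was the only one past 1.5-fold, at 11.97 in shPDLIM2 and 12.71 in shEmpty cells (-0.74, or 1.67-fold lower). Dcxr, a carbonyl reductase, had -0.56, and Sesn2, described above, had 0.46.

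Genes for proteins that act on p53 had no common direction. Of 16 activators, 7 were lower and 9 were higher, with a median of 0.04. Over all genes 49.0% were lower, and over those above background 54.9%. Past 1.5-fold, 2 activators were lower and 1 was higher, where 10.0% of all genes were lower and 9.78% higher by as much. The kinase genes given next had the largest differences of this list. The kinase gene Dyrk2 had a log2 signal of 6.51 in shPDLIM2 cells and 7.84 in shEmpty cells (-1.33, or 2.51-fold lower), and Chek2, the checkpoint kinase downstream of Atm, had 6.38 in shPDLIM2 and 7.61 in shEmpty cells (-1.23, or 2.35-fold lower). Prkdc, the catalytic subunit of DNA-dependent protein kinase, had 7.76 in shPDLIM2 and 6.78 in shEmpty cells (0.98, or 1.97-fold higher). Cdkn2a, whose Arf product inhibits Mdm2, had signals under the background level in both lines.

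Of 11 ubiquitin ligases and other inhibitors, 5 were lower and 6 were higher, with a median of 0.09. Past 1.5-fold, 1 was lower and 1 was higher, beside 10.0% and 9.78% of all genes. Huwe1, a large ubiquitin ligase with p53 among its substrates, had 11.13 in shPDLIM2 and 12.49 in shEmpty cells (-1.36, or 2.57-fold lower). Cop1, another ligase for p53, had 11.37 in shPDLIM2 and 10.78 in shEmpty cells (0.59, or 1.51-fold higher), and Mtbp, which binds Mdm2, had 0.51. Of 6 ribosomal and nucleolar genes whose products bind Mdm2, 5 were lower, beside 49.0% of all genes and 54.9% of those above background. The lowest was Rps27l, itself a p53 target, at -0.47, followed by Rpl11 at -0.32 and Npm1 at -0.25. These values depended on the scaling. After quantile normalization Rps27l had -0.365 and Rpl11 -0.2075, but Npm1 had -0.0675, Rps7 -0.035 and Rpl5 0.035.

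Genes that p53 represses through p21 and the DREAM complex, most of them mitotic, were mostly lower. Their median was -0.57, with 12 of 13 measured genes lower, beside 49.0% of all genes and 54.9% of those above background. Past 1.5-fold, 6 were lower and 0 higher, beside 10.0% and 9.78% of all genes. All 13 were above background, and of the 10800 genes above background 1569 were lower and 1056 higher past this limit. The lowest of the list were Ccnb2 at -1.65, Ube2c at -1.28 and Cenpa at -1.26. The lower signals of mitosis genes on these arrays were known when this list was drawn up, so that its count is no independent evidence.

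**Figure D4:**
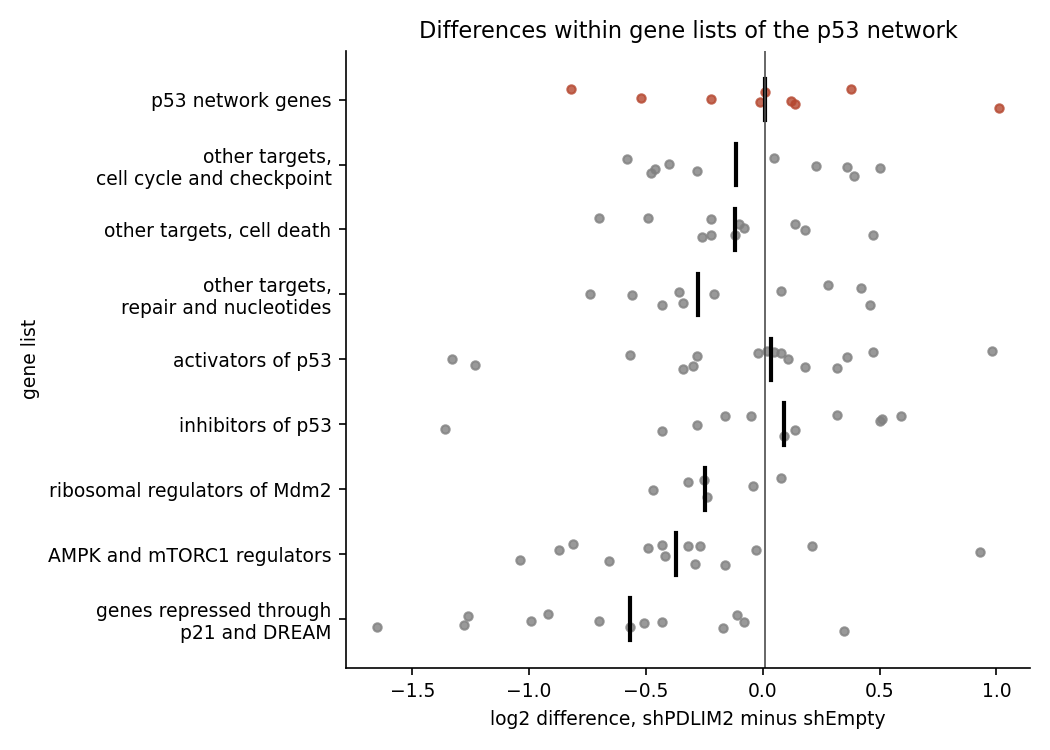
Log2 difference, shPDLIM2 minus shEmpty (horizontal axis), of every measured gene in 9 lists of the p53 network (points, spread vertically for visibility), with each list's median as a thick bar and the median of all genes as a thin line. The bars of the p53 network, activators and inhibitors lie near the line at 0.01, and those of the AMPK and mTORC1 regulators and the DREAM genes lie at -0.37 and -0.57.

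Genes next to the network on the chromosome were taken as the nearest measured protein-coding gene on each side by RefSeq order. This comparison was chosen after the values of the network were seen. A neighbour under the background level on both arrays could hardly show a shared change, so that no conclusion is drawn from such genes. Fmod and Chit1 beside Btg2 were not above background, with differences of 0.21 and 0.32. Beside Phlda3, Csrp1 had -0.29 and Tnni1, not above background, had 0.00. Aen, at -0.01, lay between Det1, at 7.67 in shPDLIM2 and 6.72 in shEmpty cells (0.95), and Isg20 at -1.06. Sesn1 lay between genes with differences near its own, Cep57l1 at -0.53 and Armc2 at -0.60. Armc2, however, was close to the background level, at 4.78 in shPDLIM2 and 5.38 in shEmpty cells, and passed it in shEmpty cells alone. Other neighbours above background were Slc35e3 at 0.35 beside Mdm2 (-0.22), Lrrn2 at -0.27 beside Mdm4 (0.38) and Pik3ca at 0.42 beside Zmat3 (0.14). Ccnd2 had -0.05 beside Tigar (0.12), and Tnfaip3 had -0.56 beside Perp (0.01), which was itself under background. A change shared between neighbours was not tested.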

How the data were processed

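RNA of shPDLIM2 and shEmpty LLC cells was hybridized to Affymetrix Clariom S mouse arrays, 1 per cell line. The table deposited by the authors holds log2 signals, 1 per probe set and array, rounded to 2 decimals. RMA and the Transcriptome Analysis Console are the tools in the submitters' processing notes. Their versions, a genome build and any normalization between the arrays are not stated in those notes or the methods. With so few arrays, the precision of each value is limited by their number.

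Of 22206 probe sets, 19572 had 1 symbol in the platform annotation. The other 2634 had no symbol or more than 1 and were left out. Probe sets of a gene were averaged, which left 19505 genes; each of the 9 genes of the p53 network had 1 probe set, so that no choice between probe sets arose. Differences were taken as shPDLIM2 minus shEmpty with no pseudocount and no test. In the gene lists, 14 listed genes had no match and were not analysed here. With 2 arrays a pattern over samples is a single difference, so that no likeness between genes was computed. Genes were compared with genes within 0.5 log2 units of mean signal as a description. Named genes were all those of the network and its close relatives, Cdkn1a, Ccng1, Bax, Bbc3, Pmaip1, Trp63, Trp73, Pdlim2 and Actb, and up to 3 genes per further list with the largest absolute difference above background. A few more genes are named where they limit a reading. The genes of the network and the lists were chosen with earlier results of these data known. Alternatives were centring, quantile normalization, removal of a lowess trend (fraction 0.3), a filter on genes above background, a fold of 2, the brightest probe set, and the 99th percentile as background. The scalings were tested on simulated data with 200 genes changed. Python 3.11.15, numpy 2.4.6, pandas 2.3.3, statsmodels 0.14.6 and matplotlib 3.10.9 were used.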

Additional observations from a re-analysis of the deposited data

How the results depend on the processing

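Of 48 values recomputed under the alternatives, 47 moved by less than the spread of 1 probe set or left a count within 1.5 times. The exception was the count of genes past the fold limit and lower, which was 0 at a fold of 2 in place of 1 at 1.5, since Phlda3 was 1.77-fold lower. The largest move of a network gene was 0.105 on the log2 scale, that of Mdm4 after quantile normalization. Btg2 ran from 1.00 after centring to 1.08 after quantile normalization, and Phlda3 from -0.83 after centring to -0.72 after quantile normalization. Aen and Perp, both near 0, changed sign with the scaling. The median of the other p53 targets ran from -0.22 to -0.20. Low signal limits Perp, Bbc3, Trp63 and Trp73, whose levels were at or near background. No paired analysis was possible because each cell line has 1 array.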
